A study of Mus musculus with 10 samples.

Results

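The subunits of the proteasome were followed at the transcript level in the mouse trigeminal ganglion, the cluster of sensory neurons, glia and other cells that serves the face. Members were all genes in the deposited tables whose mouse symbol begins with Psma, Psmb, Psmc or Psmd followed by a number. There were 39 such genes among 26411 in the table of the surgery experiment and the same 39 among 55886 in the table of the injection experiment. Of these, 38 had a mean of at least 0.5 FPKM (reads per gene, divided by the gene's length and the library's size) over the libraries of each table and were tested, among 14672 and 16139 tested genes.

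The study addressed trigeminal neuropathic pain and the neuropeptide urocortin 1 (UCN1) in 10 RNA-seq libraries. In the surgery experiment, ganglia of 3 sham and 3 pIONT libraries were taken on day 10; pIONT is the usual abbreviation for partial infraorbital nerve transection, an injury of the nerve branch to the whisker pad. In the injection experiment, ganglia of 2 libraries were taken 6 hours after phosphate-buffered saline (PBS) was injected into the ganglion, and 2 at the same time after UCN1. The strain, sex and age of the mice, and whether a library came from 1 mouse or several, are not given in the sources used here. Tests therefore rest on the spread among these samples alone, which may be technical.

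The proteasome degrades proteins that have been tagged with ubiquitin. Its barrel-shaped 20S core is built of alpha rings, which gate the entry, and beta rings, which hold the proteolytic sites; the 19S regulatory particle at its ends recognises, unfolds and feeds in the substrate. In immune cells, and in other cells exposed to interferon, the catalytic beta subunits Psmb5, Psmb6 and Psmb7 can be replaced by Psmb8, Psmb9 and Psmb10, which gives the immunoproteasome, known for making peptides for MHC class I. In neurons, protein turnover by the proteasome is known to act in synapse and axon maintenance.

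Depth in genes was estimated at 24.2 to 29.7 M reads (M, mega) for the surgery libraries and 15.7 to 17.1 M reads for the injection libraries. Markers of the labelled tissue were present: all 14 sensory neuron genes and all 8 genes of myelinating Schwann cells listed for this check passed the filter in both tables. Some libraries carried markers of a neighbouring tissue, the pituitary, with sums of 765 FPKM in sham 1, 80.7 in sham 2, 255 in sham 3 and 117 to 132 in the pIONT libraries. In the injection experiment this sum was 122.5 and 123.6 FPKM in the PBS libraries and 9.14 and 9.61 FPKM in the UCN1 libraries. The part of that carry-over in the values below was not tested, except where a value without sham 1 is given. The tables use different gene lengths, and levels are compared only within a table.

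After pIONT, 5 subunits rose and none fell, all by small amounts. They were Psmd11 and Psmd8 of the 19S particle, Psmc4 of its ATPase ring, and Psma7 and Psma1 of the alpha ring, with increases of 0.14 to 0.24 on the log2 scale, or 10.2% to 18.6% of the sham mean. Of the 38 tested subunits, 5 (13.2%) passed a limma adjusted p of 0.05, against 22.8% of all tested genes. In the higher direction these were 13.2% against 10.5% of all genes, and in the lower direction 0 of 38 against 12.3%. The median log2 fold change of the subunits was 0.0033 and that of all tested genes -0.02, with 19 subunits above 0 and 19 below; on a TPM scale the medians were -0.035 and -0.061. Leaving out any 1 library left 2 or 3 subunits called, and Psmd11 and Psmd8 were among them each time. In bulk tissue, fewer cells of a type and less RNA per cell cannot be told apart, here and in all results below.

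Markers of several cell types moved in the same libraries, where 10.5% of all tested genes rose and 12.3% fell. Of 14 sensory neuron genes 9 fell and 3 rose after pIONT, with a median log2 fold change of -0.31; their sum was 6319 to 6869 FPKM in sham and 7155 to 7241 FPKM in pIONT, the tubulin gene Tubb3 alone going from 1125 to 1202 FPKM in sham to 2001 to 2255 FPKM in pIONT. Of 8 myelinating Schwann cell genes 5 fell and 0 rose (median -0.29), with sums of 4564 to 5052 FPKM in sham and 3782 to 4061 FPKM in pIONT. Of 8 satellite glia genes 2 rose (sums of 2568 to 2746 and 2952 to 3639 FPKM), of 15 macrophage genes 10 rose (sums of 192 to 354 and 415 to 968 FPKM) and of 6 endothelial genes 2 fell (sums of 35.4 to 38.5 and 32.3 to 34.2 FPKM). No gene of these lists was at 0 in all libraries of a group. The part of these cell types in the rises of the 5 subunits was not tested.

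The fold changes of the subunits lay close to 0 and were measured closely. For 33 of 38 (86.8%) the whole 95% interval of the fold change lay between a 20% decrease and a 25% increase, which was the case for 49.3% of all tested genes. The 5 others were Psmd11 and Psmd8, whose intervals ended above 25%, and the weakly expressed Psma8, Psmb8 and Psmb9, whose intervals were wide. Libraries of the same group were alike, with a median within-group SD of 0.05 on the log2 scale against 0.09 for all tested genes. The median sham mean of the subunits was 44.2 FPKM, and genes were not matched for level in these comparisons. Sham and pIONT libraries were free of overlap for 10 subunits (26.3%), against 43.4% of all tested genes. The 10 were the 5 that rose, then Psmb3 and Psmc6, which were higher in pIONT, and Psmc1, Psmc5 and Psmd5, which were lower, none of the latter 5 passing the test.

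**Figure D1:**
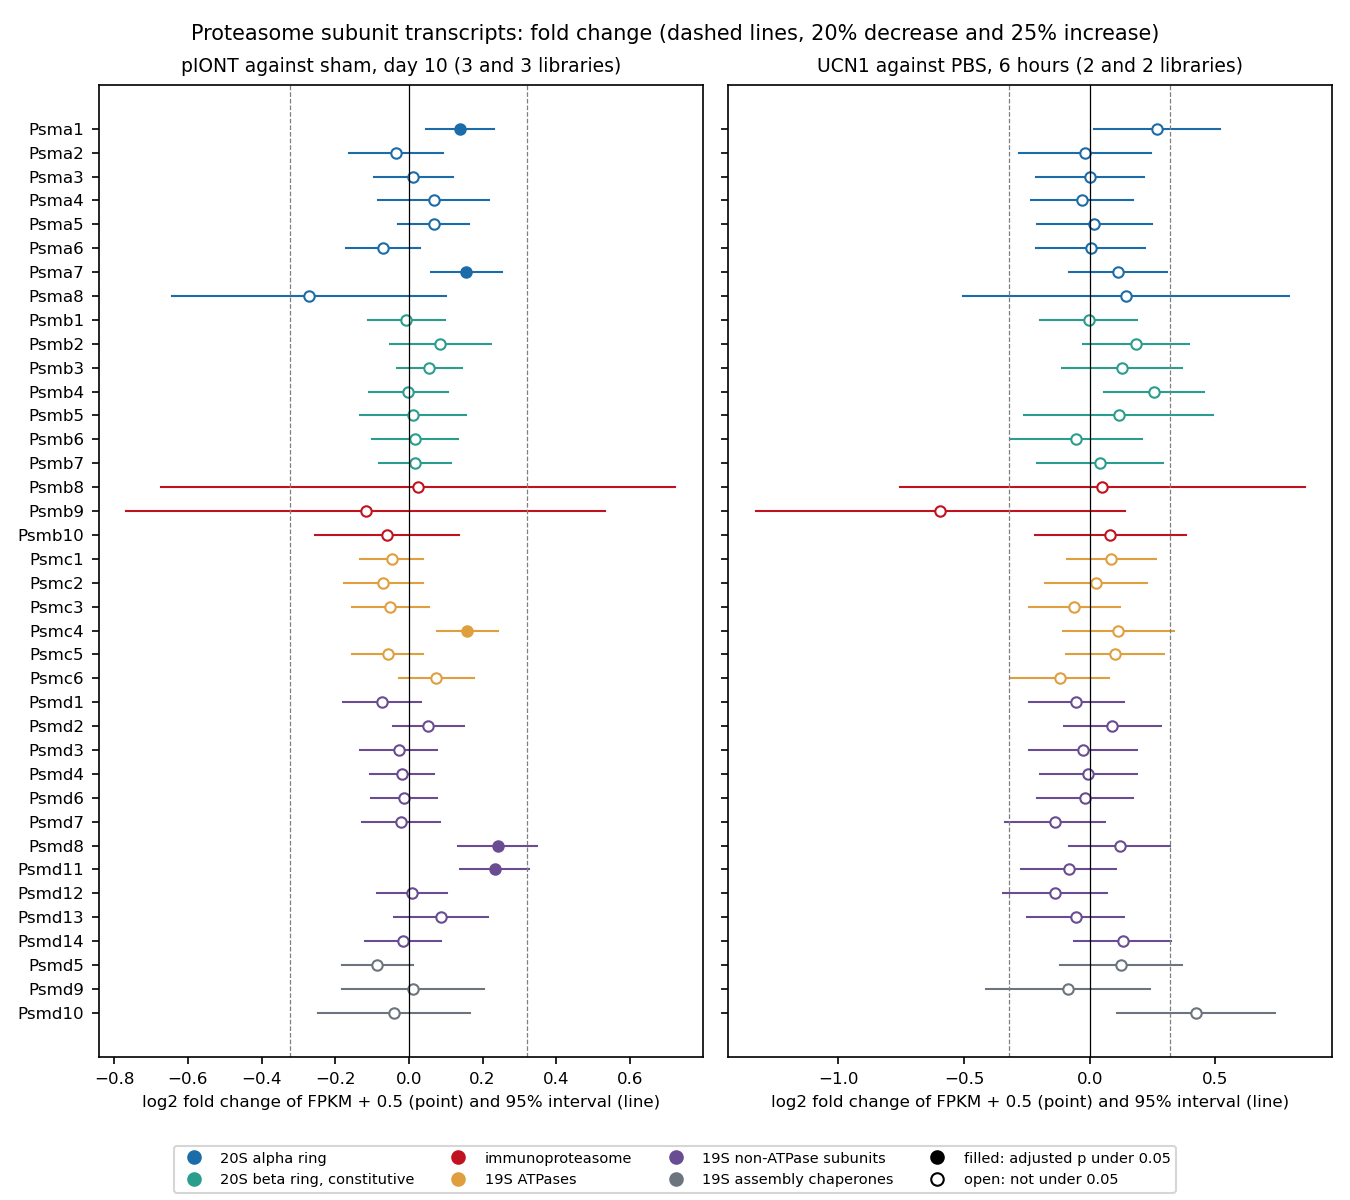
Log2 fold change of FPKM + 0.5 with its 95% interval for the 38 tested subunits, pIONT against sham on the left and UCN1 against PBS on the right, coloured by position in the complex. The horizontal scales differ. Filled points, all on the left, are Psma1, Psma7, Psmc4, Psmd8 and Psmd11. Dashed lines mark a 20% decrease and a 25% increase.

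The alpha ring narrows the entrance of the core and docks the regulatory particles. Psma7 was at 54.4, 58.1 and 54.4 FPKM in sham 1 to 3 and at 62.0, 62.1 and 61.9 FPKM in pIONT 1 to 3. All pIONT libraries lay above all sham libraries, and the pIONT libraries were almost equal. The log2 fold change was 0.16 (SE 0.04, limma adjusted p = 0.0341). Psma1, another ring member, was at 34.5, 35.2 and 33.8 FPKM in sham and 37.3, 39.1 and 37.7 FPKM in pIONT, again without overlap. It rose by 0.14 (SE 0.04, limma adjusted p = 0.0444). Both calls were sensitive to the processing: of 15 alternative settings, Psma7 was called in 7 and Psma1 in 5, with limma adjusted p of up to 0.120 and 0.145.

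The other alpha subunits did not pass the test. Psma3 had the largest p of the ring, at 25.9, 24.5 and 24.8 FPKM in sham and 24.2, 25.8 and 25.9 FPKM in pIONT, so that the groups overlapped fully, and its fold change was 0.01 (95% interval -0.09 to 0.12). Psma2, Psma4, Psma5 and Psma6 had sham means of 36.5, 43.0, 95.2 and 101 FPKM and log2 fold changes of -0.04, 0.07, 0.07 and -0.07 in this order. Psma8, a form of the ring subunit that is made in the testis, was just above the filter with a mean of 0.578 FPKM. It was at 0.717, 0.530 and 0.782 FPKM in sham and 0.565, 0.578 and 0.298 FPKM in pIONT, from an estimated 22 to 49 reads per library. The groups overlapped, and the interval of its log2 fold change of -0.27 ran from -0.64 to 0.10.

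In the constitutive beta ring 0 of 7 subunits passed the test, where 22.8% of all tested genes did. All 7 intervals lay between a 20% decrease and a 25% increase, as did 49.3% of those of all tested genes. Psmb5, Psmb6 and Psmb7 carry the chymotrypsin-like, caspase-like and trypsin-like sites. Psmb5 was at 79.1, 87.8 and 83.3 FPKM in sham and 78.2, 88.0 and 86.0 FPKM in pIONT. Psmb6 was at 82.1, 88.8 and 86.2 FPKM in sham and 83.0, 90.1 and 86.9 FPKM in pIONT, and Psmb7 at 40.8, 40.6 and 38.5 against 39.9, 40.0 and 41.5 FPKM. For each of these the groups overlapped, with log2 fold changes of 0.01, 0.02 and 0.02 and limma adjusted p of 0.48 or more in every alternative. Psmb4, a subunit without a proteolytic site, had the largest p of the ring. It was at 111, 116 and 112 FPKM in sham and 108, 117 and 114 FPKM in pIONT, a log2 fold change of -0.0012 (95% interval -0.11 to 0.11). Psmb1, Psmb2 and Psmb3, which shape the ring without cutting, had sham means of 49.0, 70.8 and 50.3 FPKM and log2 fold changes of -0.0074, 0.09 and 0.06.

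The subunits of the immunoproteasome did not pass the test either, and Psmb8 and Psmb9 varied widely between libraries of a group. Psmb8 was at 6.78, 2.65 and 4.83 FPKM in sham 1 to 3 and 4.00, 5.82 and 4.04 FPKM in pIONT 1 to 3. Psmb9 was at 4.16, 1.57 and 2.92 FPKM in sham and 2.39, 2.90 and 2.13 FPKM in pIONT. For both, sham 1 was the highest library and sham 2 the lowest, and the pIONT libraries lay between them. The within-group SD on the log2 scale was 0.47 for Psmb8 and 0.44 for Psmb9, while the median of the subunits was 0.05. Their log2 fold changes of 0.03 and -0.12 had intervals of -0.67 to 0.72 and -0.77 to 0.53. The data do not distinguish between changes within these intervals. These values rest on an estimated 259 to 631 reads per library for Psmb8 and 166 to 419 for Psmb9.

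Psmb10, the third exchanged subunit, was higher and steadier, at 22.9, 18.8 and 20.4 FPKM in sham and 18.4, 21.2 and 19.8 FPKM in pIONT. The groups overlapped, and its log2 fold change was -0.06 (95% interval -0.26 to 0.14). Psmb11, the thymus form of the catalytic subunit, stayed below the filter in all libraries, at 0.0685, 0.0290 and 0.0606 FPKM in sham and 0.0653, 0.1002 and 0.0211 FPKM in pIONT, or 3 to 14 reads.

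The exchange of catalytic subunits was read as the ratio of each immune form to the constitutive form it replaces. Psmb8 stood at 8.57%, 3.02% and 5.80% of the level of Psmb5 in sham 1 to 3 and at 5.12%, 6.61% and 4.69% in pIONT 1 to 3. Psmb9 stood at 5.06%, 1.77% and 3.39% of Psmb6 in sham and 2.89%, 3.21% and 2.45% in pIONT, and Psmb10 at 46.1% to 56.1% of Psmb7 over the 6 libraries. The groups overlapped in all 3 ratios. Their differences were 0.03, -0.14 and -0.08 on the log2 scale (exact permutation p = 1.0, 0.8 and 0.5, two-sided, and 1.0 each when adjusted over the 3, with 0.1 the smallest p that 3 against 3 libraries allow). The immune forms together made up 9.58% to 14.3% of the summed level of the 6 catalytic subunits.

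**Figure D2:**
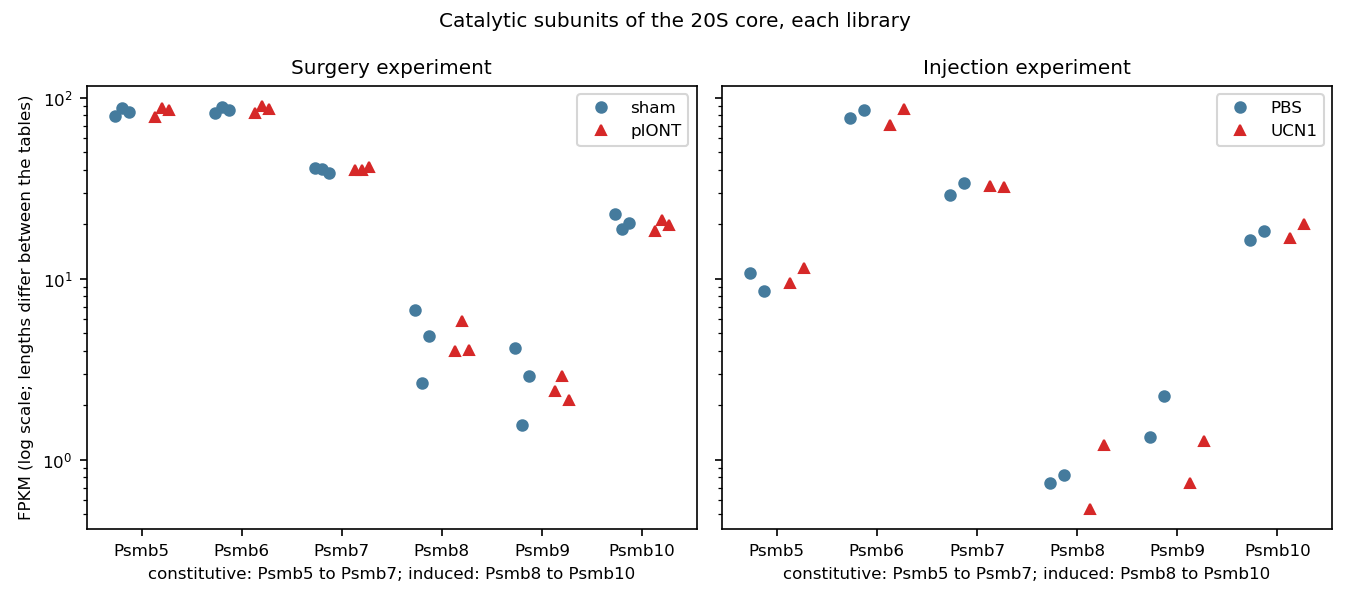
FPKM of the 6 catalytic subunits in each library on a log scale, with the surgery experiment on the left and the injection experiment on the right; circles are control libraries and triangles treated ones. Levels of the 2 panels are not comparable, since the tables use different gene lengths. Psmb8 and Psmb9 lie below Psmb10 and the constitutive forms in both panels, and the groups overlap for all but Psmb9 in the injection experiment.

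The summed level of the 15 macrophage genes, of which 10 rose after pIONT and 0 fell, was 354, 192 and 230 FPKM in sham 1 to 3 and 461, 968 and 415 FPKM in pIONT 1 to 3. The lowest pIONT library thus lay above the highest sham library in macrophage markers, while it did not in Psmb8 or Psmb9. Among the sham libraries the macrophage sum was highest in sham 1 and lowest in sham 2, as were Psmb8 and Psmb9. Among the pIONT libraries pIONT 2 was the highest in each of them. The summed level of 10 genes of MHC class I antigen processing was 1341, 765 and 955 FPKM in sham. In pIONT it was 960, 1291 and 1031 FPKM. Of these 10 genes 0 passed the test, where 22.8% of all tested genes did. Sham 1 was the highest and sham 2 the lowest library in this sum, as in Psmb8 and Psmb9, and sham 1 was also the highest and sham 2 the lowest in pituitary markers. Of the 4 tested lymphocyte genes 0 passed, against the same share of all tested genes. The part of these cells in the levels of Psmb8 and Psmb9 was not tested. Psmb9 and Tap1, a peptide transporter gene of that list, lie head to head, and 5.79% of the exon bases of Psmb9 overlap those of Tap1 on the opposite strand. The sources used here do not say whether the counting used the strand.

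**Figure D3:**
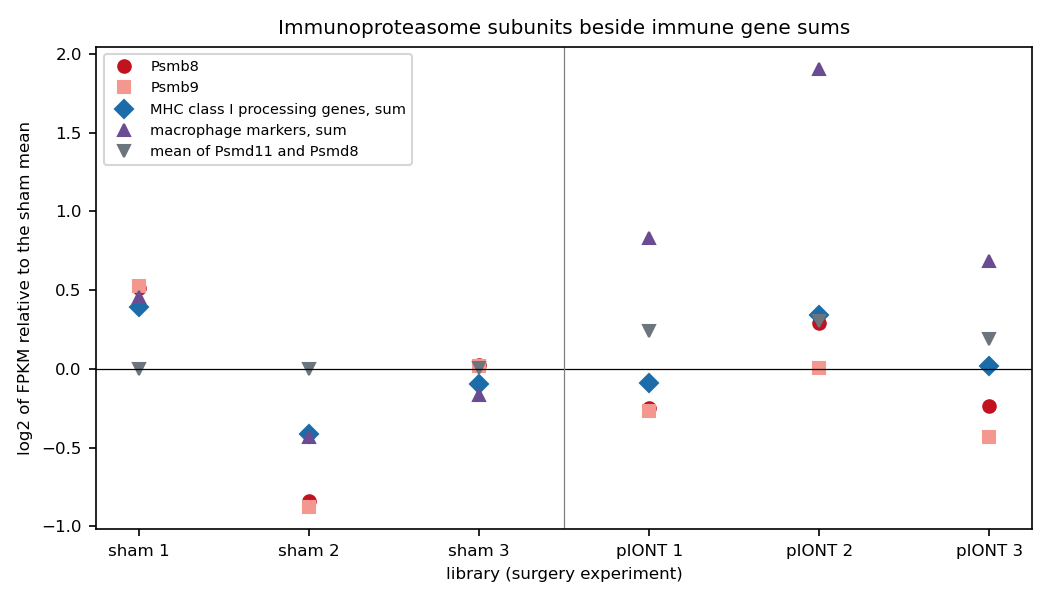
Level of Psmb8, Psmb9, the summed MHC class I processing genes, the summed macrophage markers and the mean of Psmd11 and Psmd8 in each library of the surgery experiment, as log2 of FPKM relative to the mean of the sham libraries. Psmb8, Psmb9, the MHC class I sum and the macrophage sum are, among sham libraries, highest in sham 1 and lowest in sham 2. The macrophage sum is above every sham library in all pIONT libraries. The mean of Psmd11 and Psmd8 is level in sham and higher in each pIONT library.

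The 6 ATPases form the ring of the 19S base that unfolds the substrate and opens the gate of the core. Psmc4 was the only member of the ring that passed the test, at 59.9, 60.5 and 61.7 FPKM in sham and 68.2, 68.3 and 66.9 FPKM in pIONT. The groups were apart by more than the spread within either. It rose by 0.16 (SE 0.04, limma adjusted p = 0.0207), from 60.7 ± 0.938 to 67.8 ± 0.786 FPKM (SD, n = 3). The call was kept in 9 of 15 alternatives, with a limma adjusted p of up to 0.0827. The remaining ATPases did not follow: Psmc1, Psmc2, Psmc3, Psmc5 and Psmc6 had log2 fold changes of -0.05, -0.07, -0.05, -0.06 and 0.07 and sham means of 133, 34.6, 115, 177 and 46.1 FPKM. Psmc5 was the most abundant subunit of all in sham. Psmc3, with the largest p of the ring, was at 116, 113 and 118 FPKM in sham and 113, 107 and 115 FPKM in pIONT, with overlapping groups.

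The non-ATPase subunits of the 19S particle form the lid and the outer part of the base, and include the ubiquitin receptor Psmd4 and the deubiquitinase Psmd14, which cuts the ubiquitin chain off the substrate. The subunits with the largest increases belong here. Psmd11, a scaffold subunit of the lid, was at 15.2, 14.8 and 14.5 FPKM in sham and 17.6, 17.8 and 17.2 FPKM in pIONT. The lowest pIONT library was higher than every sham library by several times the range within a group. Psmd11 rose by 0.23 (SE 0.04, limma adjusted p = 0.00829), from 14.8 ± 0.322 to 17.5 ± 0.321 FPKM (SD, n = 3).

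Psmd8, a lid subunit whose joining completes the assembly of the lid, was at 37.9, 38.4 and 38.7 FPKM in sham and 45.2, 47.7 and 43.4 FPKM in pIONT. The groups did not overlap, and the pIONT libraries spread more than the sham libraries. It rose by 0.24 (SE 0.05, limma adjusted p = 0.0115), from 38.3 ± 0.446 to 45.5 ± 2.19 FPKM (SD, n = 3). The calls of Psmd11 and Psmd8 were kept in all 15 alternatives, with a limma adjusted p of at most 0.0401 and 0.0443, and both held without sham 1 and without pIONT 2, the libraries that stood apart in pituitary and macrophage markers. In the setting without sham 1, these 2 were the only subunits called.

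The other 9 tested non-ATPase subunits did not pass. Psmd12, a lid scaffold like Psmd11, had the largest p, at 49.7, 51.5 and 49.4 FPKM in sham and 51.9, 48.9 and 50.6 FPKM in pIONT, with overlapping groups and a log2 fold change of 0.0078 (95% interval -0.09 to 0.10). Psmd4 and Psmd14 had log2 fold changes of -0.02 and -0.02 from sham means of 66.7 and 41.1 FPKM, and Psmd7, which pairs with Psmd14, was at -0.02 from 71.3 FPKM. Psmd1 and Psmd2, the large scaffolds of the base that bind ubiquitin receptors, were at -0.07 and 0.05 from 31.1 and 124 FPKM. Psmd3, Psmd6 and Psmd13, further lid subunits, were at -0.03, -0.01 and 0.09 from 33.9, 45.4 and 31.8 FPKM.

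Psmd5, Psmd9 and Psmd10 are chaperones that help to assemble the base and leave the finished particle. None of the 3 passed the test, where 22.8% of all tested genes did. All 3 intervals lay between a 20% decrease and a 25% increase, as did 49.3% of those of all tested genes. Psmd5 was at 11.5, 11.4 and 11.6 FPKM in sham and 10.6, 11.1 and 10.8 FPKM in pIONT. It was lower in every pIONT library than in every sham library, with a log2 fold change of -0.09 (limma adjusted p = 0.172). Psmd9 was at 3.60, 4.14 and 3.41 FPKM in sham and 3.67, 4.03 and 3.53 FPKM in pIONT with full overlap, and 25.5% of its exon bases overlap another gene on the opposite strand. Psmd10, also known as gankyrin, went from 13.6 ± 1.35 to 13.2 ± 1.18 FPKM (SD, n = 3), with overlapping groups, at -0.04 on the log2 scale.

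**Figure D4:**
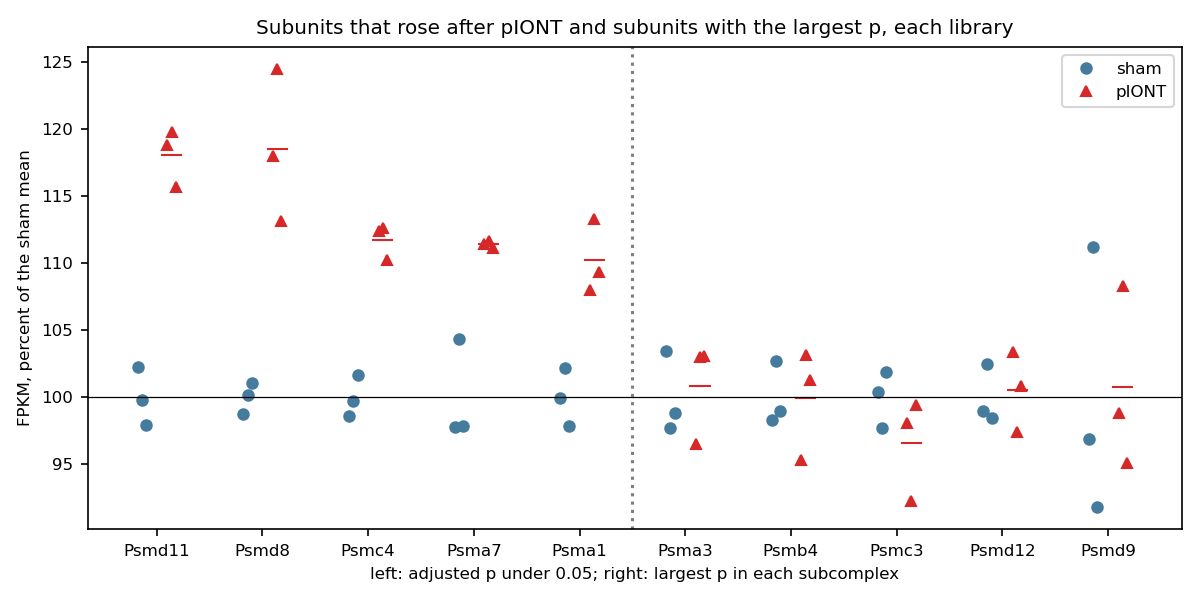
FPKM of each library as a percent of the sham mean, for the 5 subunits that rose (left of the dotted line) and for the subunit with the largest p in each group of the complex (right). Bars mark the pIONT mean. On the left the lowest pIONT library lies above the highest sham library for each gene; on the right the libraries are intermixed or, for Psmc3, overlap.

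For the 5 subunits called after pIONT, RefSeq promoters (GRCm38.p6) were read from 250 bases before to 50 after the start. Whether these genes are regulated together was not tested. The stretches nearest the start that are outside annotated untranslated exons are printed, 5′ to 3′ on the gene's strand. Capitals mark CCAAT or its reverse complement ATTGG, the box bound by the NF-Y factor. The genes themselves span, in the coordinates of the injection table (GRCm38), chr11:80428615-80473248 for Psmd11, chr7:29174188-29180701 for Psmd8, chr7:28041707-28050101 for Psmc4, chr2:180036374-180042433 for Psma7 and chr7:114264606-114276118 for Psma1. None of the 5 shares exon bases with another gene in GENCODE vM21, whereas Psmb8, Psmb5, Psmb7, Psmd13 and Psmc3 share 14.7%, 12.1%, 11.8%, 10.1% and 8.25% of theirs. The stretches are chr11:80428465-80428614 (+) for Psmd11, chr7:29180702-29180823 (-) for Psmd8, chr7:28050102-28050242 (-) for Psmc4, chr2:180042465-180042508 (-) for Psma7 and chr7:114276119-114276266 (-) for Psma1.
Psmd11: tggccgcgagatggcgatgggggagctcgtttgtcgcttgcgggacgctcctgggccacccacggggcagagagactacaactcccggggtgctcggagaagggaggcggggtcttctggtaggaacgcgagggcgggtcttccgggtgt
Psmd8: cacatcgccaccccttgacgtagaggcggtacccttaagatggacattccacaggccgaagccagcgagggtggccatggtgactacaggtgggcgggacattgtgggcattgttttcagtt
Psmc4: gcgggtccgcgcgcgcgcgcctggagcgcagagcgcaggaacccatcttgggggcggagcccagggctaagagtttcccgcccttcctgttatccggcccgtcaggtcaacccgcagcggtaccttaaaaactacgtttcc
Psma7: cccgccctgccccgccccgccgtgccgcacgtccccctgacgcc
Psma1: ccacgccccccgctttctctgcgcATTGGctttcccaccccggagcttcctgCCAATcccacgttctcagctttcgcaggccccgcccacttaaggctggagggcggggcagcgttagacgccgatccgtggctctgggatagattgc

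Each of 4 patterns was searched on both strands of the whole windows. For 32 of the 39 members 34 promoters were found. The letters CCAAT were in 13 of 34 member promoters (38.2%) and in 37.4% of all 32851 promoters; of the genes that rose, Psma1 held 2 matches and Psma7 held 1, from base -196 to -192, and Psmd11, Psmd8 and Psmc4 held none in this window. The core of the antioxidant response element, TGACNNNGC, to which the Nrf factors that control proteasome genes bind, was in 5 of 34 (14.7%) against 12.4% of all promoters. Its matches in 2 constitutive catalytic subunits, which did not pass the test, lay close to the start and are in capitals below, from chr14:54618023-54618075 (-) and chr11:70525277-70525356 (+).
Psmb5: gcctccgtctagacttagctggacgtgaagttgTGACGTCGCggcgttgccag
Psmb6: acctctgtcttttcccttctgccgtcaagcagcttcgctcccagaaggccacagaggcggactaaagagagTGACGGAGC

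The interferon-stimulated response element pattern was in 3 of 34 member promoters (8.82%) against 3.44% of all, those of Psmb3, Psmd4 and Psmd9. The gamma-activated pattern TTCNNNGAA was in 2 of 34 (5.88%) against 8.30%, with the match of Psmb8 from base -97 to -89. No match of one pattern overlapped a match of another in the member promoters. A match is a description of the sequence, not of binding.

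Among 17 measured partners of the proteasome outside the symbol rule (activators, inhibitors, assembly factors and associated enzymes), 1 rose and 0 fell after pIONT, where 10.5% of all tested genes rose and 12.3% fell. The 1 was Pomp, the chaperone that matures the core, at 24.0, 24.5 and 24.2 FPKM in sham and 27.1, 28.6 and 27.8 FPKM in pIONT, without overlap. Its log2 fold change was 0.20 (SE 0.04, limma adjusted p = 0.0130), and it was called in 13 of 15 alternatives. Psme1 and Psme2, the interferon-induced activator that caps the core, did not pass, with log2 fold changes of -0.05 and 0.07 from sham means of 12.0 and 20.8 FPKM.

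Of 11 regulators of proteasome genes, 1 rose and 1 fell, a share near the 22.8% of all tested genes that were called. Stat3, a cytokine-activated transcription factor, was at 32.0, 32.3 and 33.2 FPKM in sham and 39.2, 39.4 and 37.2 FPKM in pIONT. It rose by 0.24 (SE 0.04, limma adjusted p = 0.00808, kept in 15 of 15 alternatives). Nfyc, a subunit of the factor that binds CCAAT, was at 8.17, 7.25 and 7.94 FPKM in sham and 6.41, 6.46 and 6.46 FPKM in pIONT, also without overlap. Its log2 fold change was -0.25 (SE 0.05, limma adjusted p = 0.0185, kept in 11 of 15 alternatives). Nfe2l1, the factor that raises proteasome genes when proteasome activity is short, was at 110, 112 and 118 FPKM in sham and 106, 95.8 and 106 FPKM in pIONT. Its groups did not overlap, and its log2 fold change of -0.14 did not pass (limma adjusted p = 0.109).

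After UCN1, 0 of 38 subunits passed a limma adjusted p of 0.05 at 6 hours, where 0.601% of all tested genes (97 of 16139) did. This count was 0 in all 13 alternatives as well. At an unadjusted limma p of 0.05, 3 of 38 subunits passed, a smaller share than the 2113 of 16139 among all tested genes. The median log2 fold change of the subunits was 0.02, against -0.01 for all tested genes, with 22 above 0 and 16 below. Intervals were wider than in the surgery experiment: 22 of 38 (57.9%) lay between a 20% decrease and a 25% increase, against 16.8% of all tested genes. PBS and UCN1 libraries were free of overlap for 17 subunits (44.7%) and for 45.5% of all tested genes. Within-group SDs had a median of 0.07 on the log2 scale for the subunits and 0.13 for all tested genes. The median PBS mean of the subunits was 79.7 FPKM, and genes were not matched for level in these comparisons.

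The 3 subunits with an unadjusted p under 0.05, named here after their values were seen, had higher values after UCN1. Psmd10 was at 6.87 and 7.03 FPKM in PBS 1 and 2 and at 9.73 and 9.23 FPKM in UCN1 1 and 2, with a log2 fold change of 0.42 (95% interval 0.11 to 0.74, limma adjusted p = 0.264). Psmb4 was at 118 and 110 FPKM in PBS and 132 and 141 FPKM in UCN1, at 0.26 (95% interval 0.06 to 0.46, limma adjusted p = 0.270). Psma1 was at 69.5 and 58.6 FPKM in PBS and 73.3 and 80.9 FPKM in UCN1, at 0.27 (95% interval 0.02 to 0.52, limma adjusted p = 0.350). In each of the 3 both UCN1 libraries lay above both PBS libraries. Choosing genes by a small p favours this, and 45.5% of all tested genes were free of overlap in either direction. Psmd10 had 152 to 235 estimated reads per library.

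The subunits that rose after pIONT had these values after UCN1. Psmd11 was at 101 and 98.3 FPKM in PBS and 92.4 and 95.6 FPKM in UCN1, at a log2 fold change of -0.08. Psmd8 was at 89.8 and 85.1 FPKM in PBS and 91.7 and 98.5 FPKM in UCN1, at 0.12. Psmc4 was at 69.6 and 61.9 against 73.1 and 69.2 FPKM, with overlapping groups and a fold change of 0.11. Psma7 was at 126 and 122 against 129 and 140 FPKM, with a fold change of 0.11. The groups did not overlap for Psmd11, Psmd8 and Psma7, and none of the 4 passed the test (limma adjusted p of 0.59 to 0.71). Whether responses to UCN1 and to pIONT differ was not tested, since the experiments were quantified in different tables.

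Of the 8 alpha subunits 6 had fold changes above 0, from -0.03 for Psma4 to 0.27 for Psma1. Psma3, with the largest p of the ring, was at 80.4 and 72.7 FPKM in PBS and 79.1 and 74.1 FPKM in UCN1, with overlapping groups and a log2 fold change of 0.0023. Psma2, Psma5 and Psma6 were at PBS means of 30.4, 60.4 and 87.2 FPKM with log2 fold changes of -0.02, 0.02 and 0.0043, and Psma8 at 1.203 FPKM with 0.14 from 17 to 25 reads per library. In the constitutive beta ring Psmb1 had the largest p, at 69.2 and 70.8 FPKM in PBS and 70.1 and 69.5 FPKM in UCN1. Psmb2 and Psmb3 had log2 fold changes of 0.18 and 0.13 from PBS means of 87.7 and 54.0 FPKM. Psmb2 was higher in both UCN1 libraries (limma adjusted p = 0.438), while Psmb3 overlapped.

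The constitutive catalytic subunits overlapped between the groups. Psmb5 was at 10.8 and 8.56 FPKM in PBS and 9.48 and 11.5 FPKM in UCN1. Psmb6 was at 77.7 and 85.5 against 71.2 and 86.6 FPKM, and Psmb7 at 29.1 and 33.8 against 32.5 and 32.1 FPKM. Their log2 fold changes were 0.12, -0.05 and 0.04. The reads of Psmb5 were 111 to 145 per library here and 1806 to 2319 in the surgery experiment, and the values of this gene are uncertain. Processed copies of Psmb5 and Psmb6 exist in the genome, and the sources used here do not say how reads shared with them were counted.

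Of the immune forms, Psmb9 was lower in both UCN1 libraries, at 1.34 and 2.25 FPKM in PBS and 0.749 and 1.27 FPKM in UCN1. Its log2 fold change of -0.60 had an interval of -1.33 to 0.14 (limma adjusted p = 0.468) and rests on 14 to 42 reads per library. Psmb8 was at 0.742 and 0.829 FPKM in PBS and 0.536 and 1.21 FPKM in UCN1, from 11 to 24 reads, with overlapping groups. Psmb10 was at 16.4 and 18.4 FPKM in PBS and 16.9 and 20.1 FPKM in UCN1, also with overlap. Psmb11 was below the filter at 0.0265 and 0.0974 FPKM in PBS and 0.0730 and 0 FPKM in UCN1, or 0 to 4 reads. At this depth the data do not distinguish between changes of Psmb8 within its interval of -0.75 to 0.86.

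The ratio of Psmb9 to Psmb6 was 1.72% and 2.63% in PBS and 1.05% and 1.47% in UCN1, the lower values being in UCN1. Its difference of -0.78 on the log2 scale had an exact permutation p of 0.333, two-sided, the smallest that 2 against 2 libraries allow, and 1.0 when adjusted over the 3 ratios. Psmb8 stood at 6.87% and 9.69% of Psmb5 in PBS and 5.66% and 10.5% in UCN1, and Psmb10 at 56.1% and 54.5% of Psmb7 in PBS and 51.9% and 62.6% in UCN1. Both overlapped between the groups (exact permutation p = 1.0 each). The immune forms made up 13.6% to 14.8% of the summed catalytic level. This share and the ratio of Psmb8 to Psmb5 rest on Psmb5, whose values are uncertain in this experiment. In the same libraries the macrophage sum was 157 and 135 FPKM in PBS and 135 and 148 FPKM in UCN1. Where 0.601% of all tested genes were called, 0 of its 15 genes were, and 3 of 5 tested pituitary markers and 2 of 7 fibroblast markers fell. The part of these in the values of Psmb9 was not tested.

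In the 19S particle, the ATPases had log2 fold changes of -0.12 (Psmc6) to 0.11 (Psmc4). Psmc2, with the largest p, was at 51.7 and 50.1 FPKM in PBS and 51.4 and 52.2 FPKM in UCN1. Psmc1, Psmc3, Psmc5 and Psmc6 had PBS means of 210, 232, 91.9 and 161 FPKM and log2 fold changes of 0.09, -0.06, 0.10 and -0.12, each without overlap and none called. Psmd4, the ubiquitin receptor, had the largest p of the non-ATPase subunits, at 93.2 and 98.8 FPKM in PBS and 94.6 and 96.6 FPKM in UCN1. The others of this class lay between -0.14 for Psmd12 and 0.13 for Psmd14, with 8 of 11 below 0. Psmd1, Psmd7, Psmd11, Psmd12 and Psmd13 were lower and Psmd8 and Psmd14 higher in both UCN1 libraries, while Psmd2, Psmd3, Psmd4 and Psmd6 overlapped. Among the chaperones, Psmd9 was at 11.5 and 12.1 FPKM in PBS and 9.95 and 12.3 FPKM in UCN1, and Psmd5 had a log2 fold change of 0.13 from 33.7 FPKM.

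The lists around the proteasome had no calls after UCN1, with limma, in 17 partners, 11 regulators and 10 genes of MHC class I processing. Of all tested genes only 0.601% were called, so the absence of calls in lists of this size says little about them. The activator subunits Psme1 and Psme2 had log2 fold changes of -0.04 and 0.34. Psme2 was at 23.7 and 23.5 FPKM in PBS and 28.7 and 31.5 FPKM in UCN1, so that its groups did not overlap (limma adjusted p = 0.234). Nfe2l1 was at 244 and 270 FPKM in PBS and 243 and 262 FPKM in UCN1, with overlapping groups and a log2 fold change of -0.02.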

How the data were processed

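RNA was sequenced from 10 libraries of mouse trigeminal ganglion, with NEBNext Ultra II libraries per the labels' protocols. The authors deposited 1 table of FPKM per experiment. STAR, HTSeq, DESeq2 and the build GRCm39 are named in the submitters' processing notes, with no version or role. Of identifiers shared with GENCODE vM21 (GRCm38), 1.99% in the surgery table and 99.4% in the injection table have the same start and end there, so the tables differ in annotation, and symbols were taken by identifier. Low FPKM values multiplied by gene length were whole multiples of a step for 92.6% to 93.1% (surgery, union of exons) and 98.8% to 99.0% (injection, mean transcript length) of values, within 0.1 reads and up to 20 reads, which gave the estimated depths and reads.

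Genes with a mean of at least 0.5 FPKM were tested in each table with limma 3.58.1 (R 4.3.3), with a mean-variance trend, on log2(FPKM + 0.5), a scale that understates changes of low genes. Genes were called at 0.05 after Benjamini-Hochberg adjustment over all tested genes. Ratios were tested with exact permutation tests (scipy 1.17.1). The test was also run on simulated data. There, most changes of 1.25-fold were not called in either experiment's design, and some unchanged genes were called. Alternatives were other pseudocounts, filters and scalings, no trend, array weights, a replicate block and leaving out each library. Values in every library are given for the catalytic subunits, the called subunits, the subunit with the largest p in each part of the complex and the subunits below the filter; from other lists, for called genes, and Psme1, Psme2 and Nfe2l1 were always taken. The members and lists were chosen with earlier results of these data known. Columns of the injection table are numbered 1 and 3 where titles number 1 and 2. Not used here were protein sequences. Results of the list of ubiquitin supply genes are not reported here.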

Additional observations from a re-analysis of the deposited data

How the results depend on the processing

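After pIONT, Psmd11 and Psmd8 kept their calls in all 15 alternatives, while the number of called subunits fell from 5 to 2 on a TPM scale, 3 without a mean-variance trend, 2 with the replicate block, and 2 to 3 when 1 library was left out. On the TPM scale the median of the subunits was -0.035, that of all tested genes -0.06, and 36.7% of calls were higher, against 46.0% as reported and 54.5% with median-of-ratios scaling. The count over all genes, 3344, was 2085 with the replicate block and 1689 (without sham 3) to 2969 (without pIONT 3) when 1 library was left out. With 1 library left out, the log2 difference of Psmb8/Psmb5 after pIONT ran from -0.38 (without sham 2) to 0.37 and was -0.12 without pIONT 2, and that of Psmb9/Psmb6 from -0.55 (without sham 2) to 0.21 (without sham 1). After UCN1, 0 subunits were called in all 13 alternatives. The count over all genes, 97, was 2 with no filter, 155 at a filter of 2 FPKM, 5 without a trend, 260 with the replicate block, and 5 to 38 with 1 library left out, where the lone library of a group is assumed to vary like the others. The median of the subunits was -0.0074 on the TPM scale and ran from 0.015 to 0.063 with 1 library left out. Psmb8/Psmb5 ran from -0.53 to 0.36 (without UCN1 1) and was 0.16 without PBS 2, and Psmb10/Psmb7 ran from -0.092 (without UCN1 2) to 0.18. The causes of these shifts were not tested. Libraries with the same number did not deviate together (correlations of -0.06, -0.20 and 0.07 over genes in the surgery experiment and 0.04 in the injection experiment), so numbers were not taken as pairs. Of the uncalled genes named, 19 of 36 after pIONT and 19 of 41 after UCN1 changed sign in at least 1 alternative. Depth limits Psma8, Psmb8, Psmb9 and Psmb11 in the injection experiment, with at most 42 reads per library.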
